A study of Mus musculus with 27 samples.

Results

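The genes described here build the acid interior of the lysosome. They comprise the subunits of the vacuolar H+-ATPase (V-ATPase) proton pump, its accessory proteins, 11 cathepsins, the lysosomal membrane proteins Lamp1, Lamp2 and Mcoln1, and the transcription factors Tfeb, Tfe3 and Mitf. Members were chosen by symbol alone, and 40 of the 36333 genes in the table matched: 8 of the membrane-bound V0 sector, 13 of the cytosolic V1 sector, 2 accessory genes, 11 cathepsins, 3 membrane proteins and 3 transcription factors. Atp6v0d2 was left out by the rule and is given apart.

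Transcript levels were measured by RNA-seq in 27 samples of liver, omental adipose tissue and skeletal muscle from male MlxKO mice. All mice carried the body-wide, tamoxifen-activated Cre allele Gt(ROSA)26Sortm1(cre/ERT2)Tyj/J of B6.129 origin together with Mlx Flox/Flox, and received tamoxifen at weaning (75 mg/kg, 5 daily injections), so that Mlx, the shared partner of the Mlx Network factors, was deleted body-wide and not in a single cell type. Each tissue had 4 samples at 5 months, from the same 4 mice (their labels end in the same 4 numbers, as in X5F4299 for adipose, X5L4299 for liver and X5S4299 for muscle, and their values are given below in ascending order of that number), and 5 at 20 months. The 20-month numbers differ between tissues, and the labels do not say whether samples of different tissues share a mouse. Each 20-month sample was treated as a separate mouse. The age of 20 months is that of the labels, whereas the sample names within them (X18F36, for example) and the study's supplement give a somewhat younger age. No mice with intact Mlx were analysed here, so every difference below is one of age or tissue among MlxKO mice. Residual Mlx reads were present in every group (group means 9.12 to 28.98 in the scaled units explained next), and without intact mice the deletion could not be checked by them. The study's supplement lists its loss as less complete in muscle than in liver and adipose, which limits muscle as a model of the deletion.

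Each value is a scaled signal, the reads of a gene divided by a factor for its library, so it can be compared between samples for 1 gene but not between genes of different length. The values of a sample summed to 559419 to 646657 in adipose, 952696 to 1395315 in liver and 1064030 to 1240400 in muscle. Differences between tissues therefore depend on the scaling, whose method is not given in the sources used here. Scaling by total reads was not tried for them. Under it, differences smaller than the gap between these sums could vanish or reverse, also where called. Between 14384695 and 25673919 reads fell on genes per sample, and 1 read was worth 0.0234 to 0.0806 units, so that a gene under 3 reads (0.0703 to 0.242 units) is not told from 0. These limits cover counting error only. The markers of each labelled tissue were high in it. The summed hepatocyte markers were 105506 to 165054 in liver at 5 months and 45490.2 to 99181 at 20 months against at most 332 in any other sample, skeletal muscle fibre markers were at least 130529 in muscle, and adipocyte markers were 6435 to 14353 and 9478 to 13968 in adipose. Epididymis markers summed to at most 6.33 and pancreatic acinar markers to at most 1.43 in any sample. In adipose, mesothelium markers were 70.03 to 144 at 5 months and 36.9 to 80.2 at 20 months (3 of 6 lower), and endothelium markers 581 to 1294 and 372 to 684 (3 of 5 lower). In bulk tissue, fewer cells of a type and less RNA per cell cannot be told apart.

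The V-ATPase uses ATP hydrolysed by its V1 sector to drive protons through the V0 ring into the lysosome, and the low pH lets cathepsins, the lysosome's proteases, and other acid hydrolases work. Tfeb, Tfe3 and Mitf belong to the MiT/TFE family, which enters the nucleus when mTORC1 at the lysosomal surface is inactive and induces genes for lysosome biogenesis and autophagy through a motif known as CLEAR, an extended E-box. Factors of the Mlx Network also recognise E-boxes. Macrophages are rich in lysosomes.

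The promoters are shown first because the E-box is a letter pattern that both families of factors can read. The paper states that Mlx Network factors classically bind a longer element of paired E-box-like motifs, which was not searched for here. RefSeq windows (build GRCm38.p6) from 250 bases before to 50 bases after a transcription start were at hand for 33 of the 40 members. These members had 42 windows, since some genes had several annotated starts. No window was at hand for Atp6v0a2, Atp6v1b2, Atp6v1c1, Atp6v1g1, Atp6v1h, Ctsb and Ctsh. The 8-letter CLEAR core TCACGTGA, which reads the same on both strands and contains the E-box CACGTG, was found in 6 of the 33 members (18.2%) against 1.125% of the 27025 genes with a window. CLEAR is known from the promoters of lysosomal genes such as these, so an excess was given in advance and is not a result of these data. The E-box itself was found in 10 of the 33 (30.3%) against 8.09% of all genes, the other four being Atp6v0b, Ctsf, Ctsl and Lamp1. The stretches around these sites follow for the 6 members with the 8-letter core and for Lamp1, which had 4 E-boxes in a row but no whole core. Capitals mark the 8-letter core where it is whole and the E-box elsewhere. Another E-box of Ctsd, 245 bases before its start, lies outside the stretch shown.
Atp6v0d1: gagccaggccctactgcggTCACGTGA
Atp6v0e: ttagcgcgccgaTCACGTGAgcctctgttg
Atp6v1a: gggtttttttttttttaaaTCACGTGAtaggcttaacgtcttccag
Ctsa: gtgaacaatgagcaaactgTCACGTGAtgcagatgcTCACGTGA
Ctsd: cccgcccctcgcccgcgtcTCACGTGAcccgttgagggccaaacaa
Mcoln1: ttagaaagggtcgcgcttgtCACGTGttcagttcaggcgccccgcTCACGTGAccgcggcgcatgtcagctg
Lamp1: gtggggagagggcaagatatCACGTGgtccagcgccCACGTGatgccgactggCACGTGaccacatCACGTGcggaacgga
They lie at chr8:105566061-105566087 (- strand), chr17:26676386-26676415 (+ strand), chr16:44139365-44139410 (- strand), chr2:164833741-164833784 (+ strand), chr7:142387900-142387945 (- strand), chr8:3500428-3500499 (+ strand) and chr8:13159080-13159160 (+ strand), in the same order and each 5′ to 3′ on the gene's strand. The core began 132 bases before a start of Atp6v1a, 99 before that of Ctsd and 46 before that of Mcoln1. Ctsa held it at 13 bases before and again just after a start, while in Atp6v0d1 and Atp6v0e it lay at the start itself. The starts used for Atp6v1a and Ctsa lie inside the annotated genes, not at their outer ends. A match of letters is not evidence of binding, and no binding was measured in these samples.

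**Figure D1:**
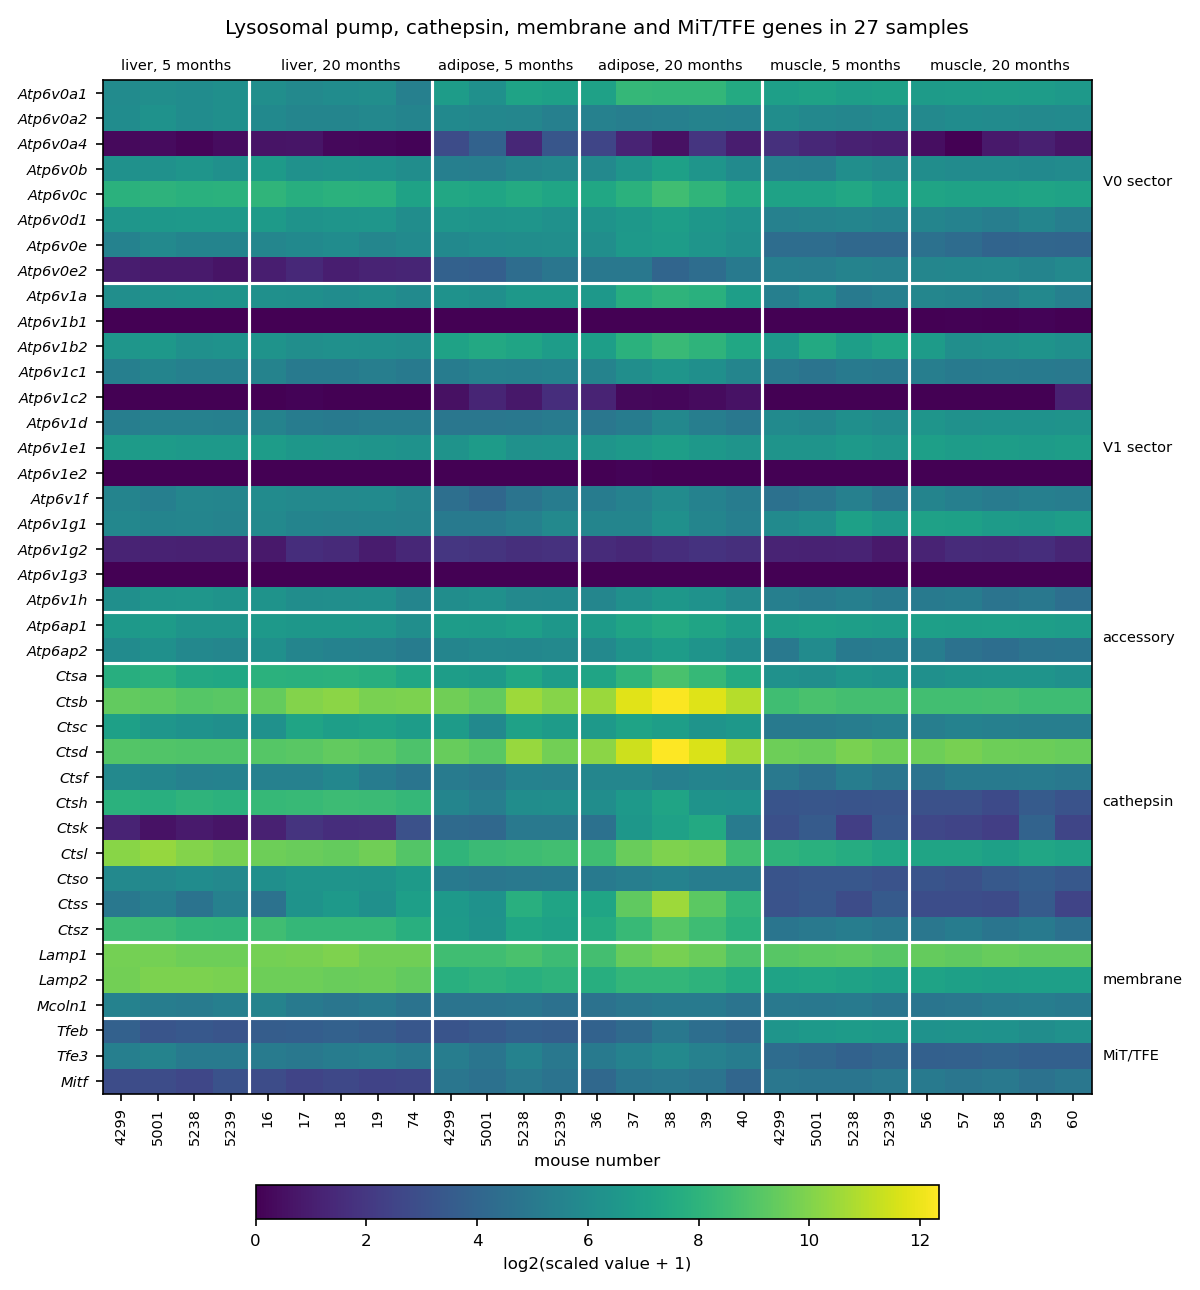
Heat map of log2(scaled value + 1) for the 40 genes (rows, grouped by role) in the 27 samples (columns, labelled with the mouse number and grouped by tissue and age). Atp6v1b1, Atp6v1c2, Atp6v1e2, Atp6v1g3 and Atp6v0a4 are near 0 in most samples, and Tfeb is brightest in muscle. Several cathepsin rows, among them Ctsb, Ctsd and Ctss but not Ctsc and Ctsf, brighten in mice 37, 38 and 39 of the adipose samples at 20 months.

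Several pump subunits exist as paralogs with tissue-restricted use, and 3 of the V1 forms were near 0 in all 3 tissues. Atp6v1b1, the B subunit of kidney intercalated cells, was at 0 in all liver and 5-month samples and at most 0.0735 units elsewhere. Atp6v1e2 was at most 0.0779 and Atp6v1g3 at most 0.0299 in any sample, all within 3 reads. Atp6v1c2 reached 1.19 ± 0.73 (SD, n = 4) in adipose at 5 months. These 4 genes did not pass the filter of 1 unit in at least 4 samples in any tissue's age comparison, and Atp6v0a4, another a subunit of kidney, did not in liver. Their common counterparts were measured in every sample, Atp6v1b2 at 65.2 units or more and Atp6v1e1 at 75.8 or more. The tests therefore covered 35 members in liver, 36 in adipose and 36 in muscle, and 37 in the fit over all 27 samples.

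The paralogs of the e subunit of V0 differed in their order over tissues. Atp6v0e2 was 40.8 ± 3.52 in muscle and 18.3 ± 6.95 in adipose at 5 months (SD, n = 4) but only 0.955, 0.873, 0.855 and 0.56 in the 4 livers. Atp6v0e was 63.3 ± 4.45 in adipose, 47.8 ± 4.52 in liver and 18.6 ± 1.81 in muscle. By limma on log2(value + 1), muscle exceeded liver by 4.53 for Atp6v0e2 (adjusted p = 7.22e-17) and fell short of it for Atp6v0e, where the liver-minus-muscle difference was 1.31 (SE 0.15, adjusted p = 1.02e-08).

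Across tissues, most members differed, as most genes did by limma. Between liver and adipose at 5 months, 15 of the 37 tested members were higher in liver (against 36.5% of all genes) and 12 lower (against 39.9%). Liver exceeded muscle for 22 of 37 (background 36%) and fell below it for 11 (36.8%). Adipose exceeded muscle for 19 (41.9%) and fell below it for 5 (30.9%). At 20 months, 5 members were higher and 17 lower in liver than adipose (background 35.7% and 38.8%), 18 higher and 9 lower in liver than muscle (39.2% and 38.1%), and 23 higher and 6 lower in adipose than muscle (42.1% and 33.9%).

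At 5 months, 13 members were called above both other tissues in liver, 7 in adipose and 4 in muscle. The share of all genes above both other tissues was not computed, so these counts only describe the members. The count for liver also depends on the scaling. The liver's largest excess was in Ctsh, an aminopeptidase among the cathepsins, and in Lamp2, a heavily glycosylated coat protein of the lysosomal membrane. Ctsh was 235, 219, 257 and 240.1 in the 4 livers against 38.4 to 67.5 in adipose and 8.14 to 8.79 in muscle, at least 2.14 log2 units above either. Lamp2 was 844, 969, 962 and 931 in liver against 217 to 255 and 123 to 151, at least 1.97 above. In both genes every liver lay above every sample of the other tissues.

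Adipose stood out for Ctss, a cathepsin of antigen-presenting cells, and for Atp6v0a4. Ctss was 101, 76.6, 216 and 144 in adipose at 5 months against 25.4 to 41.4 in liver and 6.42 to 10.1 in muscle, at least 1.87 log2 units above either. Atp6v0a4 was 6.22, 13.9, 1.59 and 8.94 in the same samples against 0.143 to 0.32 and 1.05 to 2.23, by the fit at least 1.55 above on average, with 1 adipose sample inside the muscle range. It shares its locus with Tmem213 and other annotated genes, so its reads are uncertain. Muscle stood out for Tfeb, described next, and for Atp6v0e2, at least 1.18 log2 units above either tissue.

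The MiT/TFE factors divided the tissues between them. Tfeb was 84.9, 99.4, 107 and 97.8 in muscle at 5 months, 8.30, 9.75, 12.1 and 11.3 in adipose and 13.2, 8.66, 9.70 and 8.48 in liver. Muscle lay above both others without overlap, by 3.17 over liver (SE 0.17, adjusted p = 2.97e-15) and 3.12 over adipose (SE 0.17, adjusted p = 9.8e-15) on the log2 scale, while liver and adipose were not told apart (95% interval of the log2 difference -0.40 to 0.29). Tfe3 had the reverse order, 37.2 ± 6.30 in liver, 33.96 ± 7.38 in adipose and 16.7 ± 2.25 in muscle (SD, n = 4). Liver exceeded muscle by 1.10 (SE 0.15, adjusted p = 3.74e-07), and liver and adipose were again not told apart (interval -0.17 to 0.45). Mitf, which is best known from pigment cells and osteoclasts, was lowest in liver, where the samples read 6.36, 6.33, 5.20 and 7.52. It was 27 ± 3.30 in adipose and 27.99 ± 1.85 in muscle, which did not differ beyond their spread at 5 months (interval -0.38 to 0.27), and liver was below adipose by a log2 difference of -1.93 (SE 0.16, adjusted p = 3.45e-11).

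Mcoln1, the calcium channel TRPML1 that acts upstream of Tfeb, varied less. It was 38.2 ± 3.97 in liver, 29.9 ± 2.35 in muscle and 25.9 ± 1.94 in adipose at 5 months (SD, n = 4), with liver above adipose by 0.54 (SE 0.14, adjusted p = 0.00102) and above muscle by 0.34 (SE 0.14, adjusted p = 0.0302). In unscaled reads the order of liver and adipose was the reverse, 480 to 683 in liver against 708 to 842 in adipose. Reads on genes per sample were 17200431 to 20734388 and 15141861 to 21276867, so the excess of liver over adipose rests on the scaling. At 20 months the means were 32.6 ± 7.76, 31.8 ± 3.96 and 28.7 ± 3.76 (SD, n = 5), and no pair of tissues passed the test. The order of Tfeb, Tfe3 and Mitf over tissues was kept at 20 months except that adipose then exceeded liver for Tfeb (liver minus adipose -0.72, SE 0.15, adjusted p = 0.000136), had the highest mean Tfe3 (41.5 ± 8.92 against 33.9 ± 3.46 in liver, adjusted p = 0.0799) and lay below muscle for Mitf (adipose minus muscle -0.34, SE 0.14, adjusted p = 0.0305).

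**Figure D2:**
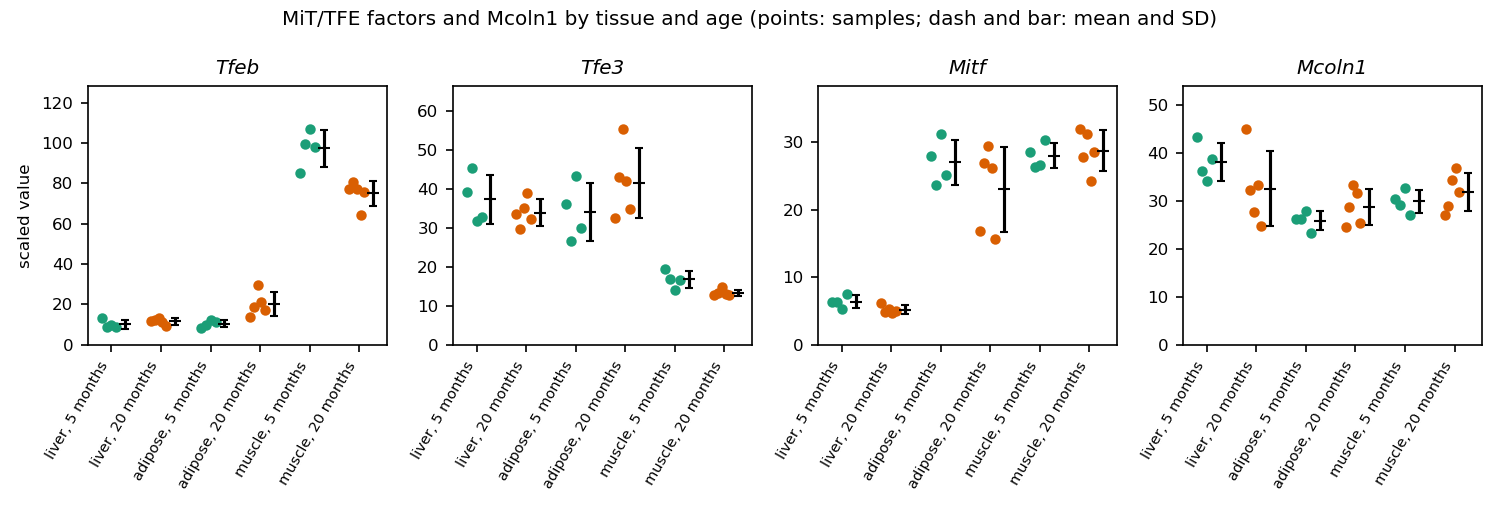
Scaled values of Tfeb, Tfe3, Mitf and Mcoln1 in every sample (points, green at 5 months and orange at 20 months) with the mean and SD of each tissue and age. Tfeb is highest in muscle at both ages, Tfe3 is lowest in muscle, and Mitf is lowest in liver.

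With age, lysosomal genes were higher in adipose. Of the 36 members tested there by limma, 10 were higher at 20 months and none lower (19 and 1 at an unadjusted p under 0.05), against 9.75% higher and 9.35% lower among all 14005 genes tested. The median log2 change of the 36 was 0.49, against 0.01 for all genes, and 32 of the 36 changes were above 0. The 10 were 5 of the 11 cathepsins, 2 of the 8 tested V0 genes, 2 of the 9 tested V1 genes and Tfeb, while neither accessory gene nor any of the 3 membrane proteins passed. On the reads recovered from the values, edgeR called 12 higher and none lower, and DESeq2 17 higher and 1 lower, Atp6v0a4.

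The cathepsins moved furthest. Ctss was 152, 641, 1501, 604 and 283 in the 20-month mice 36 to 40, in that order, against 101, 76.6, 216 and 144 at 5 months, a log2 change of 1.93 (SE 0.59, adjusted p = 0.0486). Mouse 38 was highest, and mouse 36 lay inside the 5-month range. Ctsd, the main aspartic protease of the lysosome, read 1176, 2719.6, 5190.3, 3234 and 1572 against 719, 577, 1369.9 and 828, a change of 1.55 (SE 0.45, adjusted p = 0.0409). Ctsb, a cysteine protease, read 1426, 3486, 4997, 3377 and 1969.96 against 822, 656, 1501 and 1109, a change of 1.51 (SE 0.40, adjusted p = 0.0349). In both, mice 37 to 40 were above all 5-month mice and mouse 36 was not. Ctsz, a carboxypeptidase, was 194, 314, 541, 360.3 and 237 against 103, 78.7, 154 and 133, a change of 1.44 (SE 0.30, adjusted p = 0.0203), and here the ages did not overlap. Ctsa, the protective protein of the lysosome's neuraminidase, was 149, 267, 443, 303 and 183 against 117, 104, 161 and 114, a change of 1.02 (SE 0.30, adjusted p = 0.0411), with mouse 36 again inside the 5-month range. Levels of different genes were set side by side per kilobase of principal transcript (GENCODE, the longest where several ranked alike). The group means at 5 and 20 months were 411 and 1306 for Ctsd, 215 and 643 for Ctsb, 99.2 and 469.6 for Ctss and 81.4 and 228 for Ctsz, and at most 109 for the other 7 cathepsins. The 109 was Ctsl, divided by a length of 6168 bases. Before division Ctsl was 341 and 673 against 134 and 636 for Ctss, so its place below Ctss depends on the length chosen.

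The other 6 cathepsins did not pass. Ctsk, the collagen-degrading cathepsin of osteoclasts, had the second largest change of them all, 1.57 (SE 0.56, adjusted p = 0.0716), on values of 23.5, 91.6, 134, 177 and 34.1 against 18.1, 16.8, 30.6 and 30.9, so that mice 36 and 40 lay in or near the 5-month range. Ctsl was 0.87 (SE 0.32, adjusted p = 0.0777) and Ctsh 0.75 (SE 0.25, adjusted p = 0.0593). Ctsc, Ctsf and Ctso had log2 changes of 0.12, 0.33 and 0.25, with adjusted p of 0.728, 0.0991 and 0.109. Ctsc, which activates the serine proteases of granules, thus had the smallest change of the 11.

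**Figure D3:**
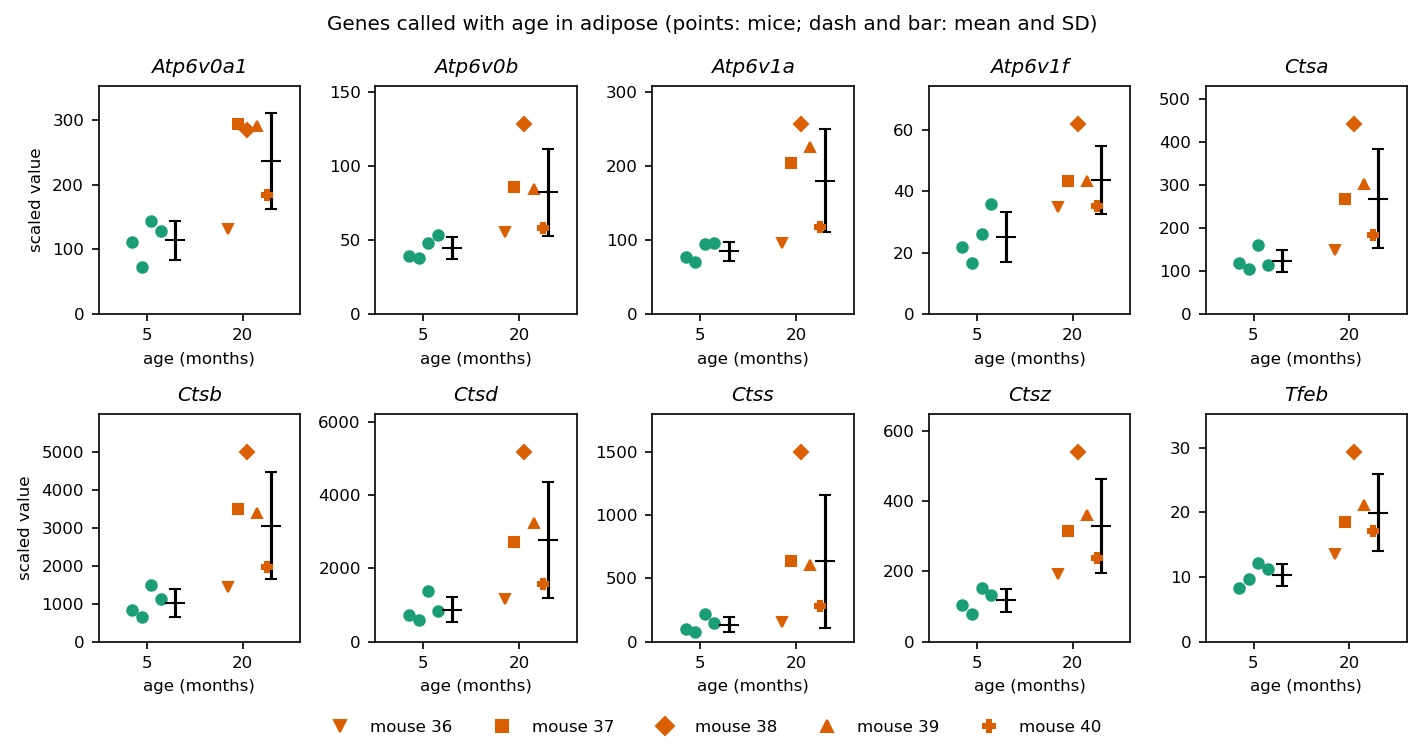
Scaled values of the 10 genes called higher at 20 months in adipose, for each mouse (green circles at 5 months, orange symbols at 20 months, 1 symbol per mouse) with the mean and SD at the right of each group. Mice 37, 38 and 39 lie highest in all 10 panels and mouse 36 lowest of the 20-month mice.

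Within the pump, the changes fell on single subunits of both sectors. Atp6v0a1, the a subunit through which protons enter and leave the ring, was 132, 294, 284, 291 and 184 against 111, 72.7, 143 and 129, a log2 change of 1.02 (SE 0.28, adjusted p = 0.0379). Its paralog Atp6v0a2 was 41.6, 37.7, 41.1, 44.95 and 43.1 against 56.03, 50.9, 50.4 and 40.2, with a change of -0.23 (SE 0.11, adjusted p = 0.145). At 5 months the mean level per kilobase was 28.4 for Atp6v0a1, 9.24 for Atp6v0a2 and 2.31 for Atp6v0a4. Atp6v0b, a c-type subunit of the ring, went from 44.6 ± 7.42 to 82.3 ± 29.4 (SD, n = 4 and 5), a change of 0.82 (SE 0.24, adjusted p = 0.0424). In V1, Atp6v1a, which carries the catalytic sites, was 96.3, 204, 257, 225 and 118 against 77.4, 69.8, 94.7 and 96.01, a change of 0.997 (SE 0.29, adjusted p = 0.0411), with mouse 36 only just above the 5-month maximum. Atp6v1f, of the central shaft, changed by 0.79 (SE 0.23, adjusted p = 0.0411), from 25.1 ± 8.07 to 43.7 ± 11.1.

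The remaining pump genes had smaller or less certain changes in adipose. Atp6v1b2, the partner of Atp6v1a in the hexamer, had 0.56 (SE 0.28, adjusted p = 0.156), and Atp6v1c1, which regulates the coupling of the sectors, 0.59 (SE 0.19, adjusted p = 0.0532). The stalk and regulatory genes Atp6v1d, Atp6v1e1, Atp6v1g1, Atp6v1g2 and Atp6v1h had log2 changes of 0.24, 0.20, 0.33, -0.20 and 0.12, and Atp6v0d1, Atp6v0c, Atp6v0e and Atp6v0e2 of 0.14, 0.51, 0.44 and 0.47. Atp6v0a4 had the lowest value, -1.42 (SE 0.53, adjusted p = 0.0823), and none of these passed. The accessory gene Atp6ap2, the prorenin receptor, had 0.53 (SE 0.19, adjusted p = 0.069), and Atp6ap1 0.34 (SE 0.17, adjusted p = 0.163). Summed over the 23 pump and accessory genes, the signal was 1177, 1196, 1290.1 and 1217 at 5 months and 1248, 1916, 2449, 1978 and 1386 at 20 months.

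Tfeb was the only MiT/TFE gene that passed in adipose. It read 13.5, 18.5, 29.4, 21.1 and 17.2 in mice 36 to 40 against 8.30, 9.75, 12.1 and 11.3 at 5 months, with no overlap, a log2 change of 0.85 (SE 0.20, adjusted p = 0.0273). Tfe3 (0.28, SE 0.18, adjusted p = 0.263) and Mitf (-0.26, SE 0.20, adjusted p = 0.343) did not pass, nor did Lamp1 (0.70, SE 0.24, adjusted p = 0.0655), Lamp2 (0.04, SE 0.15, adjusted p = 0.853) or Mcoln1 (0.14, SE 0.11, adjusted p = 0.374). Of the 10 members with an E-box in the promoter window, 4 were among those called in adipose, as were 5 of the 23 with a window and no E-box. For the 8-letter core the counts were 3 of 6 and 6 of 27. These counts are a description and were not tested.

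The number of calls in adipose depended on single mice and, as the adjustment ran over all genes, on the other genes in each fit. The share of all genes called in these fits is not given here. Without mouse 36, 19 members passed, 18 of them higher at 20 months. Without mouse 37, 38, 39 or 40, the counts were 1, 2, 0 and 2. Without the 5-month mouse X5F4299 or X5F5001 none passed by limma, as without mouse 39, although 16, 18 and 17 members were under an unadjusted p of 0.05 in these fits. Without X5F5238 or X5F5239 the counts were 8 and 9, with 1 lower in each. With a length and GC trend removed, Ctss and Atp6v0b were no longer called (adjusted p = 0.0527 and 0.0532). The same 20-month mice differed in macrophage markers. The 11 macrophage markers summed to 841, 1957, 2316, 1464 and 1099 in mice 36 to 40 against 836, 700.5, 1068 and 718 at 5 months, and 7 markers of lipid-associated macrophages to 751, 2844, 8189, 4725 and 1198 against 429.7, 440.5, 1009.6 and 563. Of the first list 2 genes were higher and 1 lower at 20 months, and of the second 6 of 7 were higher. The cathepsin sum was 3736, 8582, 14147, 9198 and 4909 in mice 36 to 40, so that 38 was highest and 36 lowest in both the cathepsin and the macrophage sums. All markers of both lists were detected in adipose at both ages. B cell markers summed to 2.96 to 15.1 at 5 months and 10.98 to 150.04 at 20 months (4 of 4 tested higher, Ighm and Ighd at 0), and T cell markers to 6.98 to 13.97 and 5.76 to 53.1 (1 of 5 tested higher, Trac at 0). The part of these cells in the cathepsin and pump values was not tested.

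**Figure D4:**
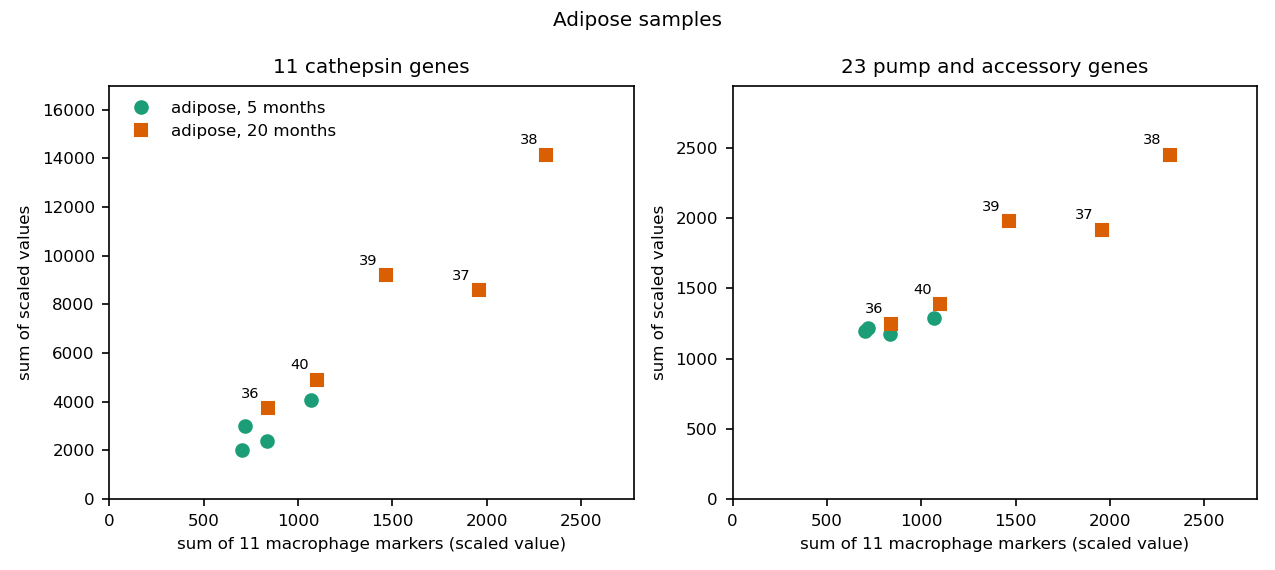
Sum of the scaled values of the 11 cathepsin genes (left) and the 23 pump and accessory genes (right) against the sum of 11 macrophage markers in the 9 adipose samples (circles at 5 months, numbered squares at 20 months). Mice 37, 38 and 39 lie at the upper right in both panels, and mice 36 and 40 lie near the 5-month samples.

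In liver, single cathepsins changed in both directions, and 1 pump gene was called. Of the 35 members tested, 3 were higher at 20 months (against 10% of all genes) and 2 lower (9.79%), so the share called was below the background, and the median log2 change was -0.10 against 0.0011 for all genes. Ctsb was 679.96, 1070.2, 1169, 938 and 968 in mice 16, 17, 18, 19 and 74, in that order, against 670.3, 620.4, 547 and 579.95 at 5 months, a change of 0.66 (SE 0.16, adjusted p = 0.0218). Ctsh was 307, 319, 348, 345 and 299.8 against 235, 219, 257 and 240.1, a change of 0.44 (SE 0.10, adjusted p = 0.0151). Ctso was 70.7, 82.5, 81.99, 80.4 and 103 against 55.7, 53.8, 63.4 and 54.8, a change of 0.54 (SE 0.12, adjusted p = 0.0136). The ages did not overlap in any of the 3 genes, although mouse 16 was only just above the highest 5-month value for Ctsb.

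Ctsl, a cysteine endopeptidase, went the other way. It read 795, 733, 696, 808 and 524 at 20 months against 1145, 1352, 1071 and 894 at 5 months, without overlap, a log2 change of -0.65 (SE 0.17, adjusted p = 0.0251). Atp6v0a2 was the only pump gene called, at 57.5, 47.8, 47.8, 52.9 and 46.5 against 63.3, 76.5, 62.8 and 69.6, a change of -0.42 (SE 0.10, adjusted p = 0.0206), and Atp6v0a1 had -0.17 (SE 0.14, adjusted p = 0.419). Ctss and Ctsk had the largest fitted changes in liver, 1.05 (SE 0.38, adjusted p = 0.0748) and 1.02 (SE 0.33, adjusted p = 0.0511), and did not pass. Ctss was 23.9, 79.9, 97.7, 71.3 and 124 against 30.04, 38.9, 25.4 and 41.4, with mouse 16 below every 5-month liver, and Ctsk reached 7.32 in mouse 74 and at most 2.65 in the other livers. Tfeb, Tfe3, Mitf and Mcoln1 had log2 changes of 0.19, -0.12, -0.25 and -0.25 with adjusted p of 0.401, 0.505, 0.215 and 0.279. Lamp2 had -0.32 (SE 0.11, adjusted p = 0.0714).

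Mouse 16 also stood apart in macrophage markers, whose sum was 278, 628, 673, 549 and 679.8 in the 20-month livers in the order above and 361, 466, 272 and 395 at 5 months. The lipid-associated list was 55.7 to 93.2 at 5 months and 99.5 to 283 at 20 months, with 6 of its 7 genes higher, and 3 of the 11 macrophage markers were higher. Hepatocyte markers were lowest in mouse 74 at 45490.2. Their part in the liver values was not tested. Without mouse 16, 8 members passed. Without the 5-month mouse X5L5001 or the 20-month mouse 18, Ctso and Ctsh alone were called, and without the 5-month mouse X5L5238 or the 20-month mouse 17 Atp6v0a2 was called too. Ctsl also lost its call without X5L4299 and with a length and GC trend removed (adjusted p = 0.0756), and Ctsb without X5L5239. Rescaling without the 20 most abundant genes moved the median of all liver genes to 0.16 on the log2 scale and gave 5 members higher and 1 lower, with Atp6v0a2 no longer called.

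In muscle, 3 of the 9 tested V1 genes, Atp6v0e2, Ctsl and Tfeb were called, in both directions. Of the 36 members tested, 3 were higher at 20 months (background 9.13%) and 3 lower (10.1%), so the share called was below the background, and the median log2 change was 0.02, against 0.02 for all genes. Atp6v1e1, a stalk subunit that holds V1 to V0, was 123, 111, 114, 110.1 and 116 in mice 56 to 60 against 82.1, 82.2, 101 and 85.6 at 5 months, a change of 0.39 (SE 0.09, adjusted p = 0.0141). Atp6v1d, the central rotor subunit, was 85.02, 73.6, 77.3, 76.7 and 81.2 against 58.3, 51.4, 70.3 and 61.7, a change of 0.38 (SE 0.10, adjusted p = 0.0229). Both genes were above every 5-month sample in all 20-month mice. Atp6v0e2 was 48.96, 51.7, 53.1, 46.7 and 54.5 against 39.1, 37.3, 45.5 and 41.4, also without overlap, a change of 0.32 (SE 0.09, adjusted p = 0.0338).

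Atp6v1b2, the nucleotide-binding B subunit, was the only pump gene called lower, with 5 of the 19 tested pump and accessory genes lower at an unadjusted p under 0.05. It was 107, 66.7, 72.9, 80.9 and 70.1 against 96.8, 182, 119 and 152, a log2 change of -0.76 (SE 0.18, adjusted p = 0.0176), with mouse 56 above the lowest 5-month sample. Its partner Atp6v1a had 0.14 (SE 0.15, adjusted p = 0.506). Ctsl was 145, 148, 130.1, 156 and 142 against 257, 229, 198 and 159, a change of -0.53 (SE 0.13, adjusted p = 0.0178), and was the only cathepsin called. Tfeb was 77, 80.8, 76.96, 64.2 and 75.8 against 84.9, 99.4, 107 and 97.8, every 20-month sample below every 5-month sample, a change of -0.37 (SE 0.10, adjusted p = 0.0242). Tfe3 had -0.31 (SE 0.11, adjusted p = 0.0706), and Mitf and Mcoln1 had log2 changes of 0.03 and 0.08 with adjusted p of 0.839 and 0.624. Ctsb and Ctsd, among the 5 cathepsins called in adipose, had -0.07 (SE 0.08, adjusted p = 0.563) and -0.03 (SE 0.10, adjusted p = 0.868) in muscle.

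Macrophage markers in muscle summed to 100.3, 76.3, 74.6, 120.4 and 76.2 at 20 months against 152, 235, 128 and 191 at 5 months, and 6 of the 10 tested were lower. The lipid-associated list was 55.3 to 99.6 and 44.3 to 78.7, with 1 of 4 tested lower. Their part in the muscle values was not tested. Without the 5-month mouse X5S5238, 12 members passed, 6 in each direction, and without the 20-month mouse 60, 3 did. Tfeb lost its call without mouse 60, Atp6v1d without X5S4299, X5S5001 or 60, and Atp6v0e2 without any of X5S4299, X5S5001, X5S5239, 57, 58 and 60. Rescaling without the 20 most abundant genes gave 6 higher and 3 lower.

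**Figure D5:**
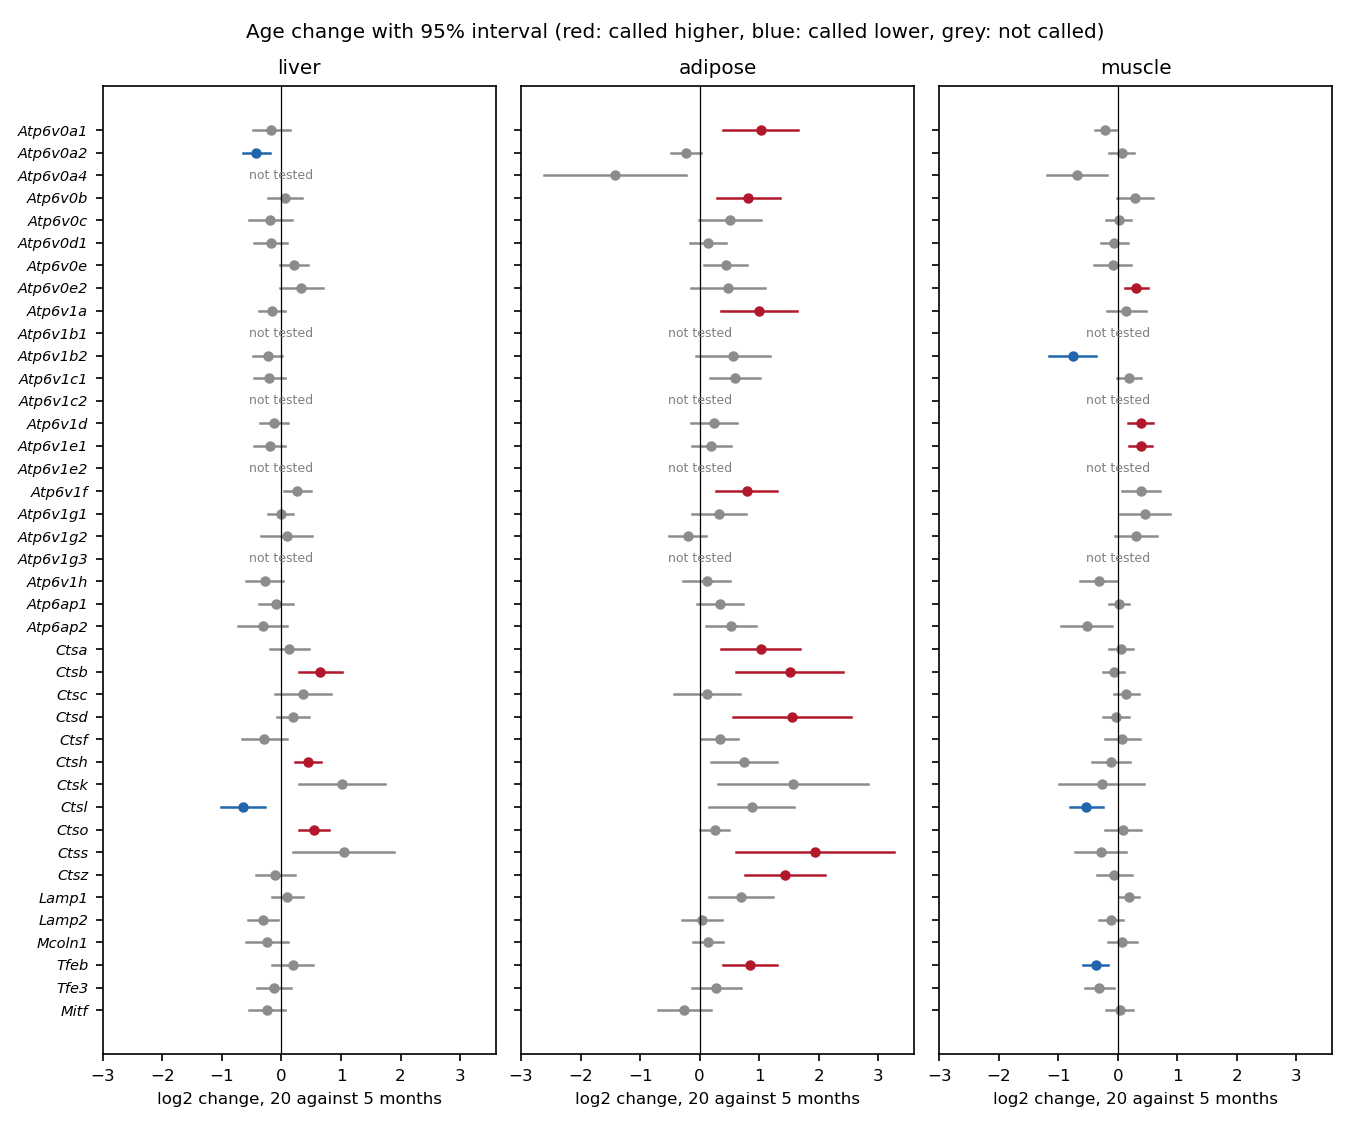
Log2 change from 5 to 20 months on the log2(value + 1) scale for each gene (rows) in liver, adipose and muscle (panels), with the 95% interval from limma. Red marks genes called higher, blue genes called lower and grey genes not called. The 10 called genes in adipose lie between 0.79 and 1.93, and the 3 genes called higher in muscle reach at most 0.39, with Atp6v1b2 called lower at -0.76.

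Whether the age change itself differed between tissues was tested in 1 fit over all samples. With the sign kept, so that a fall counts as below 0, the age change was higher in adipose than in muscle for 12 of the 37 members and lower for none (a difference in either direction was called for 14.7% of all genes tested), and higher in adipose than in liver for 10 and lower for none (15.6%). Against muscle, the difference on the log2 scale was 1.22 (adjusted p = 0.00131) for Tfeb, 1.49 (adjusted p = 0.00316) for Ctsz, 1.23 (adjusted p = 0.00572) for Atp6v0a1 and 1.58 (adjusted p = 0.00578) for Ctsb. For Tfeb these tissues moved in opposite directions, 0.85 in adipose and -0.37 in muscle, both called. The adipose call was lost without X5F4299, X5F5001, 37 or 39 (adjusted p up to 0.0796), and the muscle call when a length and GC trend was removed (adjusted p = 0.0869). Against liver, the liver-minus-adipose difference was -1.54 (adjusted p = 0.00205) for Ctsz, -1.52 (adjusted p = 0.00304) for Ctsl, -1.19 (adjusted p = 0.00582) for Atp6v0a1 and -0.79 (adjusted p = 0.00864) for Atp6v1c1, whose group means were 41.4 ± 3.11 and 36.1 ± 5.55 in liver and 40.5 ± 3.90 and 63.2 ± 17.1 in adipose at 5 and 20 months. Ctsl fell in liver and in muscle and had 0.87 in adipose, where it was not called, and the liver-minus-muscle difference of the change was -0.12 (adjusted p = 0.847).

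Liver and muscle differed in the age change of only 2 members (against 17.5% of all genes), Atp6v0a2 with -0.49 (adjusted p = 0.0159) and Atp6v1e1 with -0.58 (adjusted p = 0.0184). With the mouse as a replicate block, which takes up the pairing of the 5-month tissues, 4 members were called, Atp6v1d and Ctso being added, as they were when genes with a mean under 5 were left out. The block kept all 24 calls of the 3 comparisons. The fit assumed the same spread of log2(value + 1) in every group. In scaled units Ctsb, for example, was 3051 ± 1405 in adipose at 20 months and 383 ± 16.7 in muscle (SD, n = 5). Its spread was thus larger in adipose also relative to the mean. When the spread was estimated per group, an alternative chosen after seeing the data, 11 members differed between adipose and muscle, 7 between liver and adipose and 3 between liver and muscle, and Atp6v0b, Tfeb and Atp6ap2 lost their call against liver and Atp6v1a against muscle. Between liver and adipose, 16 members differed without the adipose mouse 36 and 6 without any one of X5F4299, X5F5001, 37 and 38 of adipose or X5L4299, 19 and 74 of liver. Between liver and muscle, 5 differed without the liver mouse 16 and 4 without X5S5238. The median sum of macrophage markers at 5 and 20 months was 777 and 1464 in adipose, 378 and 628 in liver and 172 and 76.3 in muscle, and its part in these differences was not tested.

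The rest of the pathway was described from 6 lists with 93 genes. Their calls in adipose come from the same samples as those of the members, which depended on single mice. Counts with 1 sample left out are not given here for the lists or for the relatives that follow. In adipose, 14 of 33 acid hydrolases and activators were higher at 20 months and none lower (against 9.75% and 9.35% of all genes, for all lists in this tissue), with Gusb (beta-glucuronidase) at 1.62 (SE 0.37, adjusted p = 0.0246) and Lipa (lysosomal acid lipase) at 1.54 (SE 0.46, adjusted p = 0.0445), and the list's median log2 change was 0.61. Of 20 other lysosomal membrane proteins and transporters (median 0.30) 5 were higher, with Mcoln2 at 1.64 and the cholesterol carrier Npc2 at 1.38. Of 7 genes listed under mannose 6-phosphate sorting, which tags hydrolases for the lysosome (median 0.50), 3 were higher, with Nagpa at 0.89 and Sumf1 at 0.85. Sumf1 is a sulfatase-modifying factor and has no part in that tagging. Among 3 tested cystatin inhibitors, the cathepsin inhibitor Cstb was higher at 1.25 (median 0.66). Autophagy genes were split, 2 higher and 2 lower of 14 tested (median 0.07), with Gabarapl1 at -1.01 and Ulk1 at -0.86. Of 13 tested genes of mTORC1 and folliculin at the lysosome, the Ragulator genes Lamtor1 and Lamtor5 were higher at 0.81 and 0.79 (median 0.15).

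In liver, where 10% of all genes were higher and 9.79% lower, 8 of 33 hydrolases were higher and none lower, among them Lgmn (0.62), with a median of 0.14. Other membrane proteins had 4 higher and 2 lower of 18, with Cd63 at 1.41 and Laptm5 at 1.22, and both tested cystatins, Cstb (0.88) and Cst3 (0.47), were higher. Wipi1 was the only autophagy gene called (-0.75, lower, of 14) and Lamtor5 the only gene of the mTORC1 list (0.48, of 13). None of the 7 genes of the sorting list passed by limma (1 at an unadjusted p under 0.05). In muscle, where the background was 9.13% and 10.1%, 2 hydrolases were higher and 2 lower of 33, Arsa (-0.54) and Lipa (-0.52) having the largest changes, and the median was -0.08. Membrane proteins had 2 higher and 2 lower of 18, with the cholesterol transporter Npc1 at -1.35 and Ostm1 at 0.45. Gabarapl1 (-1.34) and Ulk1 (-0.74) were lower and Atg5 higher among 14 autophagy genes. Of 14 genes of the mTORC1 list 5 were higher, led by the Rag GTPase genes Rragb (0.74) and Rragd (0.57). Of 3 cystatins Cst6 was higher (1.05), and none of the 7 genes of the sorting list passed (2 at an unadjusted p under 0.05).

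Of 8 relatives that the rule left out, 2 were called in adipose and 1 in liver. Atp6v0d2, the d subunit of osteoclasts and macrophages, was 36.8, 144, 252, 175 and 60.8 in adipose of mice 36 to 40 against 17.9, 30.6, 56.6 and 27.3 at 5 months, a log2 change of 1.79 (SE 0.55, adjusted p = 0.0485). In liver it went from 0.527 ± 0.315 to 7.99 ± 4.96, a change of 2.30 (SE 0.49, adjusted p = 0.0136). Tcirg1, the a3 subunit, was 54.2, 122, 321, 225 and 92.1 against 38.9, 29.2, 61.4 and 35.2 in adipose, a change of 1.74 (SE 0.47, adjusted p = 0.0358), and had 0.57 (SE 0.20, adjusted p = 0.0686) in liver and -0.34 (SE 0.16, adjusted p = 0.153) in muscle. Tfec, the fourth MiT/TFE gene, had 0.80 (SE 0.28, adjusted p = 0.0653) in adipose and 0.03 (SE 0.24, adjusted p = 0.941) in liver, Ctsw 1.01 (SE 0.36, adjusted p = 0.0717) in adipose, and Ctse 0.04 (SE 0.31, adjusted p = 0.934) in liver. Ctsg, Lamp3 and Lamp5 did not pass the filter in any tissue.

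Some reads cannot be placed with certainty. In the reference transcripts, 36.6% of the 50-base words of Ctsd and 32.5% of those of Atp6v0c also occur in another gene's transcript, as do 19.2% for Atp6v1g1, 18.2% for Atp6v1f and at most 6.9% for any other member. Atp6v1f and Ctsd, both called in adipose, are therefore uncertain to that degree. Another RefSeq gene overlaps 15 members, among them Ctsb, Ctsa, Ctsz, Ctss, Atp6v0a1, Atp6v0b, Atp6v1b2 and Atp6v1e1. Reads in such overlaps cannot be assigned where the counting ignores strand, which the sources used here do not state.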

How the data were processed

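Poly-A selected RNA was sequenced with a directional kit. The table deposited by the authors holds a scaled signal per gene and sample. Its headers call the values CPM in the manner of CLC Genomics Workbench, 1 of the 3 tools in the study's methods (the others were run on featureCounts output). The authors' labels name the builds GRCm38.p6 and mm10, and the build, use of strand and scaling behind this table are not given in the sources used here. The planned tests assumed CPM values, but the sums differed between samples. All values were whole multiples of 1 read (tolerance 0.01 reads), so reads were recovered as well. Same-group samples differed well beyond sampling noise (chi-square per degree of freedom 9.81 to 218 over 48 pairs), and all were kept.

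The age change in each tissue was tested with limma 3.58.1 (R 4.3.3) on log2(value + 1) over genes at 1 or more in at least 4 samples, and differences between tissues in 1 fit over all 27 samples. Benjamini-Hochberg adjustment ran over all genes tested, and a gene is called where the adjusted p is under 0.05, two-sided. Log2 changes understate changes of low genes. Spread is over mice, ± being the SD, and no test used intact mice. At 5 months the same mice gave all tissues (the deviations of same-mouse samples correlated at -0.02 to 0.29 over 12 pairs, mean 0.14, consensus 0.10). The alternatives were another pseudocount, filters, scalings, a length and GC trend, sample weights, the mouse as a block, each sample left out in turn, count tests of the recovered reads (edgeR 4.0.16, DESeq2 1.42.0), and a spread per group, the last chosen after seeing the data. The scripts were tested on simulated data.

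Members and gene lists were chosen with earlier results of these data known. Sample values are printed for at most 6 called genes per tissue by size of change, Tfeb, Tfe3, Mitf and Mcoln1, the 2 members with the largest excess per tissue and up to 4 per pair of tissues for the difference in age change, with 2 genes per list and tissue, of which 1 is not reported here. Atp6v1a and Atp6v0a2 in adipose, Ctsk, Ctss in liver, the e paralogs and Tcirg1 were added after their values were seen.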

Additional observations from a re-analysis of the deposited data

Results flagged for a closer look

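In 10 of 212 groups of samples, 1 sample lay far from the others of its gene, tissue and age, where chance alone gives about 1 in 20. At 5 months these were Atp6v1c1 in liver (46.04 in mouse X5L5001, next highest 40.3), Atp6v1d in adipose (34.5 in mouse X5F5239, next 29.6), Atp6v1e1 in adipose (109 in mouse X5F5001, next 78.7), Atp6ap2 in muscle (60.1 in mouse X5S5001, next 35.2) and, as a low value, Atp6v1g2 in muscle (0.767 in mouse X5S5239, next lowest 1.29). At 20 months they were Atp6v1d in liver (45.0 in mouse 16, next 36.3), Atp6v1g1 in adipose (72.6 in mouse 38, next 48.1), Tfe3 in muscle (14.7 in mouse 58, next 13.2), and Ctsk in liver (7.32 in mouse 74, next 2.65) and in muscle (14.1 in mouse 59, next 5.28).

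The change from 5 to 20 months differed between tissues for 24 combinations of a gene and a pair of tissues, by limma's test of the difference itself. Liver minus adipose, the log2 difference in age change was -0.89 for Ctsa, -1.54 for Ctsz, -1.36 for Ctsd and -1.52 for Ctsl among the cathepsins. For the pump it was -0.76 for Atp6v0b, -1.19 for Atp6v0a1, -0.79 for Atp6v1c1, -1.16 for Atp6v1a and -0.85 for Atp6ap2, and it was -0.66 for Tfeb. Liver minus muscle, it was -0.49 for Atp6v0a2 and -0.58 for Atp6v1e1. Adipose minus muscle, it was 0.97 for Ctsa, 1.49 for Ctsz, 2.22 for Ctss, 1.58 for Ctsd, 0.86 for Ctsh, 1.40 for Ctsl and 1.58 for Ctsb among the cathepsins, 1.32 for Atp6v1b2, 1.23 for Atp6v0a1, 0.85 for Atp6v1a and 1.05 for Atp6ap2 in the pump, and 1.22 for Tfeb. In these comparisons with adipose, the signed change was higher in adipose each time, although for Atp6v1b2 the larger change in size was the fall in muscle.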

How the results depend on the processing

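The numbers of members called for age were the least stable. They were 12 in liver and 28 in adipose with sample weights, 8 in liver, 18 in adipose and 10 in muscle with DESeq2, and 2 in adipose with no filter on low values, where more genes entered the adjustment. Leaving out 1 sample at a time gave 2 to 8 in liver, 0 to 19 in adipose and 3 to 12 in muscle. For the difference in age change, liver against adipose had 6 members with no filter and 6 to 16 with 1 sample left out, liver against muscle had 4 with genes of mean under 5 left out, 4 with a replicate block for the mouse and 2 to 5 with 1 sample left out, and adipose against muscle had 8 to 16 with 1 sample left out. The replicate block lost none of the calls. With 1 sample left out, the contrasts of tissues had 24 to 27 (liver against adipose), 30 to 31 (liver against muscle) and 23 to 25 members (adipose against muscle) at 5 months and 20 to 23, 25 to 29 and 27 to 30 at 20 months. Each fit was adjusted over all genes, so the counts also depend on how many of all genes it called, which is not given here. Where no other reason is given, the cause was not tested. The 1002 repeats of single genes covered only genes already called for age or for its difference between tissues. All 1002 kept their direction, and 178 of these missed the threshold. A called gene seldom reverses on the same data, so the repeats do not speak for members that were not called. Counting error was largest relative to the value for the genes near 0.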
